A study of Mus musculus with 9 samples.

Results

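Solute carriers are membrane proteins that move amino acids, sugars, metals, nucleosides, vitamins, ions and metabolites across the plasma membrane and the membranes of organelles. Transcripts of their genes were described here in sorted mouse spermatogonia. The group was chosen by name and by level: 357 entries of the expression table carried a symbol of the Slc pattern (Slc, a family number, a letter and a member number), and 158 of them reached 1 FPKM in 3 or more of the 9 libraries. These 158 genes are among 11142 genes tested. A further 196 entries of the pattern stayed under this minimum, 21 of them at 0 in every library, and 3 (Slc2a1, Slc11a2 and Slc40a1) were left out because they belong to other gene groups. No symbol of the pattern stood on more than 1 entry. FPKM is a fragment count scaled by transcript length and by the number of mapped fragments, so levels can be set side by side between genes. Since the level chose the genes, their levels are a description, with no test. At the edge of the choice, the value that decided (the gene's third-highest library) was 1.00 FPKM for Slc12a9 and 1.02 FPKM for Slc43a2 just inside, and 0.985 FPKM for Slc4a2 and 0.970 FPKM for Slc16a10 just outside.

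Most carriers of the Slc families work as exchangers, cotransporters or facilitators and use no ATP of their own. In the seminiferous tubule, germ cells take up amino acids, folate, choline, metals and the lactate made by Sertoli cells through such carriers. The Slc25 family sits mostly in the inner mitochondrial membrane and includes the ADP/ATP carriers that export newly made ATP, one of which, encoded by Slc25a31, is largely a germ cell protein.

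All 9 libraries came from testes of male LT-11B6 pups at postnatal day 6. These mice have a C57BL/6 background and carry an Id4-eGfp transgene, so every group shares the reporter, and EGFP-positive cells are those in which Id4 sequences drive it. Cells were stained with an antibody to TSPAN8, a tetraspanin of the cell surface. TSPAN8-high (3 libraries) was the upper 1/3 of EGFP-positive cells by this stain, TSPAN8-low (3 libraries) was the weakly stained lower 1/3, and all ID4-EGFP+ (3 libraries) was sorted on EGFP alone. The middle of the staining range is therefore in neither fraction. Replicates are separate preparations of cells. The sources used here do not say whether the litters differed, so a p-value here covers only how far these preparations varied.

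The labels were checked against known genes. Tspan8 averaged 34.0 ± 8.41 FPKM in TSPAN8-high, 9.73 ± 2.71 FPKM in TSPAN8-low and 15.2 ± 1.39 FPKM in all ID4-EGFP+ (SD, n = 3 each). The 6 germ cell markers (Ddx4, Dazl, Dppa5a, Zbtb16, Sall4 and Utf1) were all expressed, with summed levels of 2027 to 2359 FPKM in TSPAN8-high, 1910 to 2408 FPKM in TSPAN8-low and 1697 to 2253 FPKM in all ID4-EGFP+. Absolute depth is unknown. Relative depth was estimated from low-level genes shared with all ID4-EGFP+ replicate 1, of which only 15.6 to 20.3% stood at the most common value. By this estimate, relative depth was 0.856 to 1.05 times that of all ID4-EGFP+ replicate 1. It was 1.01, 1.03 and 1.05 in TSPAN8-high and 0.856, 0.944 and 0.889 in TSPAN8-low, so every TSPAN8-low library was below every TSPAN8-high library. In all ID4-EGFP+ replicate 2, 1 small RNA entry (Snord68) held 11.3% of the summed FPKM. Markers of Sertoli cells, the somatic cells that enclose the germ cells, were not even across libraries. The summed level of the 12 markers was 95.1, 105 and 237 FPKM in TSPAN8-high, 12.9, 23.3 and 146 FPKM in TSPAN8-low, and 20.9, 48.8 and 111 FPKM in all ID4-EGFP+. The 6 Sertoli markers that were tested (Clu, Cst12, Cst9, Inha, Aard and Rhox8) all had estimates above 0 for TSPAN8-high against TSPAN8-low, and none passed until the replicate number was added to the fit, when all 6 did. The Sertoli markers Sox9, Wt1, Amh, Inhbb, Fshr and Dhh stayed under the minimum. Sox9, Wt1 and Amh were at or below 0.714 FPKM in every library, and Fshr and Dhh reached 1.27 and 1.00 FPKM in TSPAN8-high replicate 3. Mean levels in TSPAN8-high and TSPAN8-low were 0.777 and 0.311 FPKM for Fshr, 0.476 and 0.225 for Dhh, and 0.381 and 0.0471 for Amh. They were 0.314 and 0.235 FPKM for Wt1, 0.103 and 0.0911 for Sox9, and, in the other direction, 0.0676 and 0.0936 for Inhbb. Other somatic markers were lower, with summed levels of 14.0 to 16.2 FPKM (leukocyte) and 3.83 to 13.7 FPKM (interstitial) in TSPAN8-high, 7.12 to 14.3 and 1.78 to 8.87 FPKM in TSPAN8-low, and 9.01 to 13.2 and 2.08 to 5.56 FPKM in all ID4-EGFP+. Of these, Pdgfra (interstitial, adjusted p = 0.0180) and Cd68 (leukocyte, 0.0384) were higher in TSPAN8-high with the block, as were the germ cell markers Zbtb16 (0.0121) and Ddx4 (0.0245), and none of the 4 passed without it. The part of these cells in the carrier values below was not tested.

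The carriers covered every substrate class but not evenly. Mitochondrial carriers were the most completely expressed, with 37 of 47 table entries among the 158. Carriers of nucleosides and nucleotide sugars had 24 of 35 and carriers of metals 22 of 33. The 33 metal entries include Slc11a2 and Slc40a1, which also reached the minimum but were left out. Amino acid and peptide carriers had 23 of 55, vitamin, choline, lipid and organic ion carriers 22 of 62, and inorganic ion carriers 17 of 56. Few carriers of sugars and polyols (6 of 27), of carboxylates (4 of 19) and of neurotransmitters, creatine or taurine (3 of 23) were among the 158. The 27 sugar and polyol entries include Slc2a1, which also reached the minimum but was left out. The median gene of the 158 stood at 4.15 FPKM, against 10.3 FPKM for all tested genes. There were 51 genes at 10 FPKM or more and 7 over 100 FPKM, while 37 were under 2 FPKM. Of the 158, 132 reached 1 FPKM in all 9 libraries, and none met the minimum through libraries of 1 group only.

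**Figure D1:**
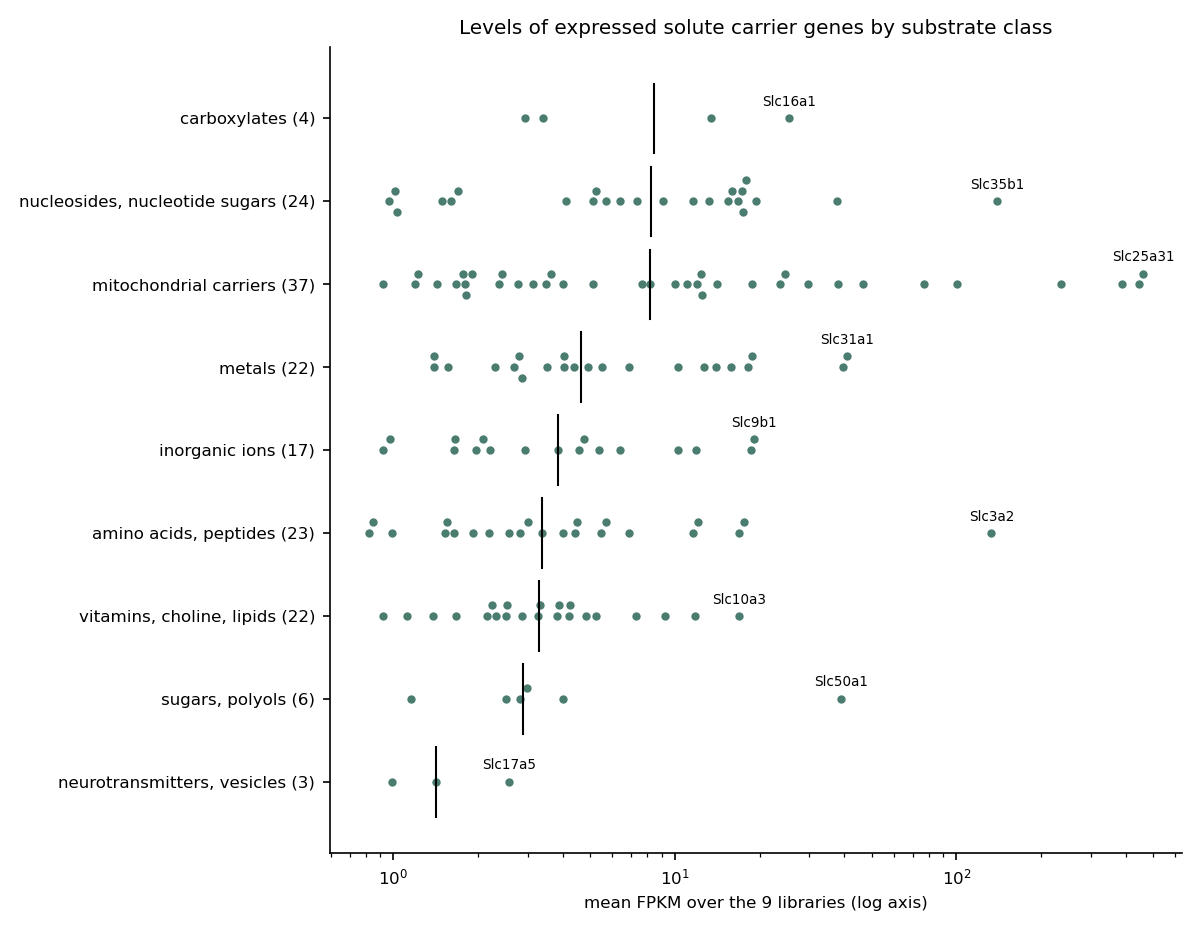
Level of each of the 158 carrier genes, as mean FPKM over the 9 libraries on a log axis, by substrate class, with the number of genes in parentheses. Each point is 1 gene, the vertical lines are class medians, and the highest gene of each class is named. Slc25a31 and others of the mitochondrial class reach beyond 100 FPKM, where only Slc35b1 and Slc3a2 stand among the other classes.

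By level, mitochondrial carriers made up most of the transcripts, with 63.9% of the summed FPKM of the 158 genes. Slc25a31, the germ cell ADP/ATP carrier gene, was highest at 461 FPKM over the 9 libraries. It was followed by Slc25a3, the mitochondrial phosphate carrier, at 445 FPKM and by Slc25a5, the ADP/ATP carrier of dividing cells, at 387 FPKM. Slc25a39, needed for glutathione in mitochondria, stood at 236 FPKM. Outside the mitochondrion the highest were Slc35b1, which encodes an ATP importer of the endoplasmic reticulum, at 140 FPKM and Slc3a2, the heavy chain that pairs with several amino acid transporters, at 133 FPKM. The partners of that heavy chain were lower, with Slc7a5 (large neutral amino acids) at 16.9 FPKM and Slc7a6 (cationic and neutral amino acids) at 11.6 FPKM.

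Leading genes of the other classes were Slc31a1, the high-affinity copper importer (41.0 FPKM), and Slc30a6, a zinc transporter of the secretory pathway (39.5 FPKM). Slc50a1, a sugar transporter of the SWEET family, stood at 39.0 FPKM and Slc37a4, the glucose 6-phosphate transporter of the endoplasmic reticulum, at 4.02 FPKM. Slc2a3, a glucose transporter gene, was under the minimum at 0.893 FPKM. Slc16a1, the lactate and pyruvate transporter MCT1, averaged 25.4 FPKM and its relative Slc16a11 13.4 FPKM. Slc35a4 stood at 37.8 FPKM, the sodium/proton exchanger gene Slc9b1 at 19.1 FPKM, and Slc10a3 at 16.9 FPKM. The reduced folate carrier gene Slc19a1 had 11.8 FPKM. In the smallest class the lysosomal sialic acid transporter gene Slc17a5 had 2.57 FPKM and the taurine transporter gene Slc6a6 1.42 FPKM.

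Variation between libraries differed from gene to gene. The median coefficient of variation over the 9 libraries was 21.2%. It was smallest for Slc25a17, a carrier of peroxisomes despite its family (6.21%, with 42.3 to 53.0 FPKM), and for Slc25a3 (6.55%, with 396 to 500 FPKM). It was largest for Slc35g2 (52.1%), the ascorbate transporter gene Slc23a1 (47.8%), the zinc importer gene Slc39a4 (47.3%), Slc38a1 (45.6%) and Slc38a5 (44.3%), each of which averaged below 3 FPKM. Sums of the largest classes were close between groups. The 37 mitochondrial carriers summed to 2037 ± 106 FPKM in TSPAN8-high, 1993 ± 148 FPKM in TSPAN8-low and 2019 ± 186 FPKM in all ID4-EGFP+ (SD, n = 3 each). The 24 carriers of nucleosides and nucleotide sugars summed to 350 ± 24.9, 388 ± 51.7 and 383 ± 41.5 FPKM in the same groups. In both classes the group means differed by less than the largest SD. That did not hold for the 3 carriers of neurotransmitters, creatine or taurine, at 5.42 ± 0.470, 4.56 ± 0.369 and 4.98 ± 0.516 FPKM in the same groups. Their sums with FPKM as deposited only just did not overlap between the fractions. The lowest was 5.04 FPKM in TSPAN8-high and the highest 4.95 FPKM in TSPAN8-low, and sums under other scalings were not compared.

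The comparison of the fractions asked how carrier transcripts differ between spermatogonia rich and poor in TSPAN8. In TSPAN8-high, 8 of the 158 genes were higher and 3 lower than in TSPAN8-low (limma on log2(FPKM + 1), Benjamini-Hochberg adjusted p under 0.05 over all 11142 genes), a split that turned to 2 higher and 9 lower when all libraries were set to a common median. The 8 were Slc38a1, Slc35g2, Slc16a13, Slc38a4, Slc26a10, Slc25a12, Slc44a2 and Slc25a24, and the 3 were Slc29a1, Slc46a1 and Slc30a4. The 11 genes are 6.96% of the carriers, against 5.56% of all tested genes (3.41% higher and 2.15% lower). With the replicate number of the libraries added to the fit as a block, 32 carriers passed, against 19.1% of all tested genes. The 11 came from 7 of the 9 substrate classes. For each of the 11, TSPAN8-high and TSPAN8-low did not overlap, and all ID4-EGFP+ averaged between the fractions, as it did for 80 of the 158. There was no overlap between the fractions for 49 carriers (31%), against 25.6% of all tested genes. For 1 gene alone, the exact two-sided permutation test of 3 libraries against 3 cannot go below p = 0.1. In bulk samples, fewer cells that express a gene and less RNA per cell cannot be told apart.

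**Figure D2:**
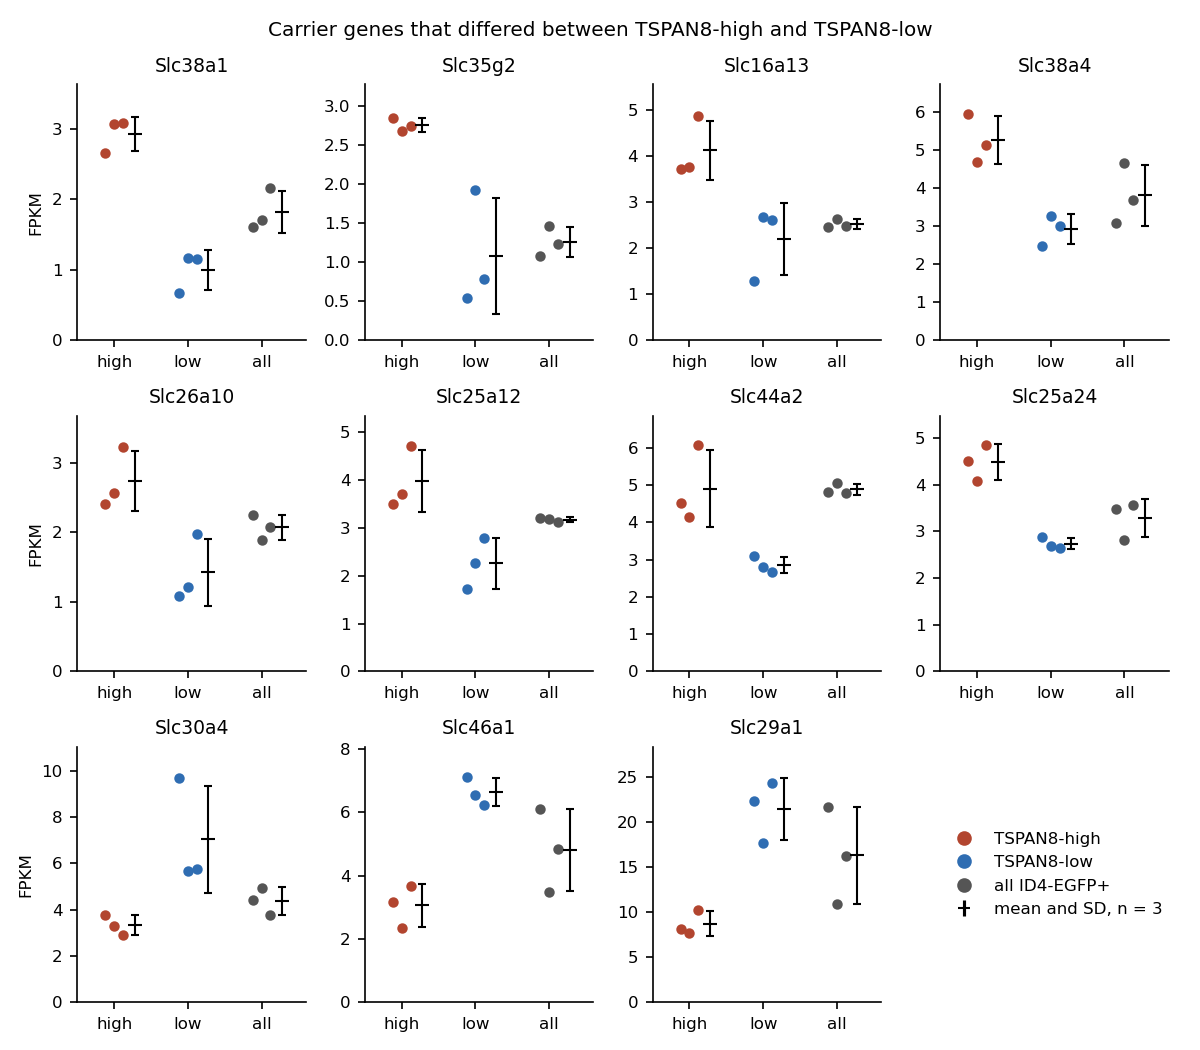
FPKM of the 11 carrier genes that passed between the fractions, in each library (points) with the mean and SD of 3 libraries, on axes that start at 0. The first 8 panels are higher in TSPAN8-high and the last 3 lower, with no overlap between the fractions. In the Slc44a2 panel all ID4-EGFP+ sits at the level of TSPAN8-high.

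Among carriers of amino acids, 2 of 23 were higher in TSPAN8-high and 0 lower with FPKM, against 3.41% and 2.15% of all tested genes. At a common median 1 was higher and 1 lower, against 2.05% and 3.25% of all tested genes. With the authors' normalized values 1 was higher and 1 lower, against 2% and 2.76%. With the block 3 were higher and 2 lower, against 11.8% and 7.34%. Slc38a1, which encodes a sodium-coupled importer of glutamine and other neutral amino acids, stood at 2.65, 3.06 and 3.08 FPKM in TSPAN8-high, 0.672, 1.16 and 1.15 FPKM in TSPAN8-low, and 1.60, 1.70 and 2.16 FPKM in all ID4-EGFP+. Every TSPAN8-high library lay above every other library. The means differed 2.94-fold, with a log2 fold change of 0.98 (SE 0.15, limma adjusted p = 0.00577). Slc38a1 was the only one of the 11 that passed without any 1 of the 9 libraries, but its adjusted p was 0.0970 without replicate 2 and 0.0548 without replicate 3 of all groups. Slc38a4, whose product carries neutral and cationic amino acids, had 5.95, 4.70 and 5.14 FPKM in TSPAN8-high, 2.49, 3.27 and 3.00 FPKM in TSPAN8-low, and 3.09, 4.67 and 3.68 FPKM in all ID4-EGFP+. Its values in all ID4-EGFP+ ran up to just below the lowest TSPAN8-high library. The log2 fold change between the fractions was 0.68 (SE 0.16, limma adjusted p = 0.0340), and the call was lost without any 1 of the 6 fraction libraries (adjusted p of 0.0625 to 0.0990).

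In the Slc38 family of 9 carriers 2 passed with FPKM, against 5.56% of all tested genes. Its estimates were above 0 for 7 and below for 2 under each of the 4 scalings, against 6301 of 11142 above 0 over all tested genes with FPKM. Slc38a2, the most abundant of them and an importer of neutral amino acids, had 14.2, 13.1 and 14.7 FPKM in TSPAN8-high, 10.7, 8.85 and 10.7 FPKM in TSPAN8-low, and 12.3, 13.5 and 11.1 FPKM in all ID4-EGFP+. Its fractions did not overlap, but its log2 fold change of 0.44 did not pass (SE 0.14, limma adjusted p = 0.0981; 0.0335 with the replicate number as a block). The 2 below 0 were Slc38a6 (-0.14) and Slc38a10 (-0.11). Slc38a9, a lysosomal carrier that reports arginine to mTORC1, stood at 5.05 ± 1.61 FPKM in TSPAN8-high, 4.22 ± 0.846 FPKM in TSPAN8-low and 4.19 ± 0.965 FPKM in all ID4-EGFP+ (SD, n = 3 each).

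Slc7a14 and Slc7a2, of the cationic amino acid branch of the Slc7 family, did not pass with FPKM and passed as lower in TSPAN8-high with the block. Slc7a14 had 7.36, 10.1 and 14.3 FPKM in TSPAN8-high, 13.0, 25.8 and 22.7 FPKM in TSPAN8-low, and 18.4, 20.3 and 27.0 FPKM in all ID4-EGFP+. The fractions overlap by 1 library, and all ID4-EGFP+ lies above TSPAN8-high. Its log2 fold change between the fractions was -0.88 (SE 0.27, limma adjusted p = 0.0798; 0.00287 with the block). Slc7a2, which encodes the cationic amino acid transporter CAT2, had 1.21, 1.03 and 0.909 FPKM in TSPAN8-high, 3.14, 1.66 and 1.89 FPKM in TSPAN8-low, and 1.88, 1.80 and 1.22 FPKM in all ID4-EGFP+. The fractions do not overlap, and its log2 fold change was -0.63 (SE 0.18, limma adjusted p = 0.0642; 0.0130 with the block). Without the block Slc7a2 passed at a common median (adjusted p = 0.0398) and with the authors' normalized values (0.0345). Slc3a2, the abundant heavy chain, had a log2 fold change of -0.05 (SE 0.18), and Slc7a5 of 0.09 (SE 0.20).

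The largest fall was in Slc29a1, which encodes ENT1, an equilibrative transporter of nucleosides such as adenosine and uridine. It stood at 8.16, 7.70 and 10.3 FPKM in TSPAN8-high, 22.3, 17.6 and 24.3 FPKM in TSPAN8-low, and 21.7, 10.9 and 16.2 FPKM in all ID4-EGFP+. All 3 TSPAN8-high libraries lay below all 6 others. The log2 fold change between the fractions was -1.20 (SE 0.22, limma adjusted p = 0.0113), and it missed the threshold when TSPAN8-high replicate 2 was left out (adjusted p = 0.0528). An antisense gene, Gm17080, overlaps 6.86% of its exon bases, and the kit does not mark strand. Its relative Slc29a2, the gene of ENT2, had 10.1, 6.80 and 7.50 FPKM in TSPAN8-high, 6.79, 5.89 and 6.58 FPKM in TSPAN8-low, and 9.54, 6.02 and 6.96 FPKM in all ID4-EGFP+. Its lowest TSPAN8-high value was only just above its highest TSPAN8-low value, and its log2 fold change of 0.29 did not pass (SE 0.19, limma adjusted p = 0.394).

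Many known members of the Slc35 family, but not all, bring nucleotide sugars into the Golgi apparatus or endoplasmic reticulum. The 21 carriers of this family gave 8 estimates above 0 and 13 below (6 and 15 under each of the other 3 scalings). Slc35g2 had 2.85, 2.68 and 2.74 FPKM in TSPAN8-high, 0.539, 1.92 and 0.778 FPKM in TSPAN8-low, and 1.08, 1.46 and 1.23 FPKM in all ID4-EGFP+. TSPAN8-high was even and above both other groups, while TSPAN8-low was uneven. Its log2 fold change was 0.91 (SE 0.21, limma adjusted p = 0.0274), and the call was lost without any TSPAN8-high library and without TSPAN8-low replicate 1 or 3 (adjusted p of 0.0541 to 0.0813). Of those below 0, Slc35f5 was nearest the threshold, with 13.8, 13.0 and 12.2 FPKM in TSPAN8-high, 25.1, 17.7 and 20.7 FPKM in TSPAN8-low, and 19.9, 15.6 and 13.2 FPKM in all ID4-EGFP+. Its fractions do not overlap (log2 fold change -0.65, SE 0.18, limma adjusted p = 0.0526; 0.00547 with the block, and 0.0319 without it at a common median). Slc35g1 averaged 14.5 ± 4.21 FPKM in TSPAN8-high, 23 ± 8.1 FPKM in TSPAN8-low and 14.9 ± 4.29 FPKM in all ID4-EGFP+ (SD, n = 3 each). All ID4-EGFP+ was at the level of TSPAN8-high, and the difference between the fractions passed with the block only (log2 fold change -0.61, limma adjusted p = 0.204; 0.00898 with the block). Slc35b2, the Golgi importer of the sulfate donor PAPS, had a log2 fold change of -0.59 with no overlap between the fractions (SE 0.17, limma adjusted p = 0.0624; 0.0221 with the block, and 0.0348 without it at a common median). Slc35b1, the most abundant, had an estimate of -0.15 (SE 0.19).

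Among the 22 carriers of metals, Slc30a4 alone was lower in TSPAN8-high and 0 were higher with FPKM, against 2.15% and 3.41% of all tested genes. At a common median and with the authors' normalized values 2 were lower, Slc30a4 and Slc30a3. Of all tested genes 3.25% and 2.76% were lower under these scalings. Slc30a4 encodes ZnT4, a zinc exporter into vesicles. It had 3.79, 3.31 and 2.90 FPKM in TSPAN8-high, 9.70, 5.67 and 5.74 FPKM in TSPAN8-low, and 4.44, 4.94 and 3.77 FPKM in all ID4-EGFP+. TSPAN8-low replicate 1 was the highest library by far, and all ID4-EGFP+ reached down to the TSPAN8-high range. The log2 fold change was -0.86 (SE 0.19, limma adjusted p = 0.0274). The call was lost without TSPAN8-low replicate 1 (adjusted p = 0.0633), TSPAN8-high replicate 2 (0.0887) or TSPAN8-high replicate 3 (0.0950). A non-coding gene on the other strand, 4930417H01Rik, shares 2.37% of its exon bases.

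Zinc carriers fall into an exporting and an importing family. Of the 7 Slc30 genes, which move zinc out of the cytosol, 6 estimates were below 0, or 7 at a common median. Of the 10 Slc39 genes, which move zinc into the cytosol, 8 estimates were above 0, or 6 under each of the other 3 scalings, and of all tested genes 6301 of 11142 were above 0. With FPKM, Slc30a4 was the only zinc carrier that passed without the block. Slc30a3 had 1.65, 2.07 and 2.49 FPKM in TSPAN8-high, 3.30, 3.07 and 3.35 FPKM in TSPAN8-low, and 3.13, 3.32 and 3.45 FPKM in all ID4-EGFP+. TSPAN8-high lay below both other groups (log2 fold change -0.47, SE 0.14, limma adjusted p = 0.0743; 0.0263 with the block, and without it 0.0344 at a common median and 0.0386 with the authors' normalized values). Slc39a4, the importer known from zinc uptake in the intestine, had 1.29, 2.45 and 3.11 FPKM in TSPAN8-high, 0.786, 1.28 and 1.31 FPKM in TSPAN8-low, and 1.59, 1.13 and 1.13 FPKM in all ID4-EGFP+. Its fractions overlap (log2 fold change 0.59, SE 0.21, limma adjusted p = 0.120; 0.0469 with the block). The abundant Slc30a6 had an estimate of 0.08 (SE 0.16), which was below 0 at a common median.

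The copper importer gene passed only with the block. Slc31a1 had 44.7, 32.1 and 33.2 FPKM in TSPAN8-high, 55.1, 42.6 and 50.2 FPKM in TSPAN8-low, and 40.8, 39.1 and 31.4 FPKM in all ID4-EGFP+. Within each replicate number the TSPAN8-high library was the lower of the 2 fractions, although the groups overlap (log2 fold change -0.43, SE 0.17, limma adjusted p = 0.175; 0.0339 with the block). The 2 Slc41 genes, which encode magnesium carriers, had estimates of 0.32 (Slc41a1) and 0.29 (Slc41a2) with no overlap between the fractions, and neither passed with or without the block.

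Carriers of folate, choline and other cofactors gave 1 fall and 1 rise of 22 with FPKM, against 2.15% and 3.41% of all tested genes. At a common median the fall alone passed, where 3.25% of all tested genes were lower. Slc46a1, which encodes the proton-coupled folate transporter, had 3.15, 2.35 and 3.68 FPKM in TSPAN8-high, 7.10, 6.54 and 6.23 FPKM in TSPAN8-low, and 6.09, 3.50 and 4.82 FPKM in all ID4-EGFP+. The 2 fractions are well apart and all ID4-EGFP+ spans the gap. The log2 fold change was -0.92 (SE 0.19, limma adjusted p = 0.0177), and it missed the threshold when TSPAN8-high replicate 2 (adjusted p = 0.0817) or TSPAN8-low replicate 2 (0.0509) was left out. Slc19a1, the other folate carrier gene, had 12.1, 8.73 and 10.5 FPKM in TSPAN8-high, 11.5, 9.76 and 15.2 FPKM in TSPAN8-low, and 14.6, 9.26 and 14.98 FPKM in all ID4-EGFP+. Those ranges overlap (log2 fold change -0.19, SE 0.21, limma adjusted p = 0.642). Slc19a2, a thiamine transporter gene, had 7.42 ± 0.670 FPKM in TSPAN8-high, 11.7 ± 2.38 FPKM in TSPAN8-low and 8.51 ± 3.04 FPKM in all ID4-EGFP+ (SD, n = 3 each), a difference that passed with the block (adjusted p = 0.0130) and not without it (0.135).

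The choline transporter-like genes of the Slc44 family had 3 estimates above 0 of 3 (2 under each of the other scalings). Slc44a2 had 4.52, 4.13 and 6.07 FPKM in TSPAN8-high, 3.08, 2.79 and 2.67 FPKM in TSPAN8-low, and 4.82, 5.05 and 4.78 FPKM in all ID4-EGFP+. TSPAN8-low was the group apart (log2 fold change 0.60, SE 0.15, limma adjusted p = 0.0398). That call held only without all ID4-EGFP+ replicate 2, and without any 1 of the other 8 libraries the adjusted p was 0.0541 to 0.148. Slc44a1 had 6.24, 4.15 and 5.91 FPKM in TSPAN8-high, 2.47, 2.98 and 3.41 FPKM in TSPAN8-low, and 5.02, 4.81 and 3.15 FPKM in all ID4-EGFP+. Its fractions do not overlap (log2 fold change 0.69, SE 0.19, limma adjusted p = 0.0546; 0.0233 with the block). Slc44a4 was level, with an estimate of 0.07 (SE 0.26).

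Of the 4 carboxylate carriers, 1 was higher in TSPAN8-high with FPKM, against 3.41% of all tested genes. This was Slc16a13, a gene of the monocarboxylate transporter family. It had 3.72, 3.76 and 4.86 FPKM in TSPAN8-high, 1.30, 2.68 and 2.61 FPKM in TSPAN8-low, and 2.45, 2.64 and 2.47 FPKM in all ID4-EGFP+. All 3 TSPAN8-high libraries lay above the 6 others. The log2 fold change was 0.70 (SE 0.19, limma adjusted p = 0.04997). With any 1 of the 9 libraries left out it did not pass (adjusted p of 0.0549 to 0.173). Slc16a1, the abundant MCT1 gene, had 23.3, 25.2 and 21.5 FPKM in TSPAN8-high, 32.5, 29.7 and 24.4 FPKM in TSPAN8-low, and 24.2, 24.2 and 23.7 FPKM in all ID4-EGFP+. The fractions overlap, and its log2 fold change of -0.29 did not pass (SE 0.14, limma adjusted p = 0.265).

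Of the 17 inorganic ion carriers, 1 was higher in TSPAN8-high with FPKM, against 3.41% of all tested genes. This was Slc26a10, a gene of an anion exchanger family. It had 2.41, 2.57 and 3.23 FPKM in TSPAN8-high, 1.08, 1.22 and 1.98 FPKM in TSPAN8-low, and 2.25, 1.90 and 2.07 FPKM in all ID4-EGFP+. The log2 fold change was 0.64 (SE 0.16, limma adjusted p = 0.0445), and the call held only without TSPAN8-low replicate 3 (adjusted p of 0.0535 to 0.161 without any 1 of the others). B4galnt1, a ganglioside synthase gene on the opposite strand, shares 17.8% of the exon bases of Slc26a10. It averaged 5.36 FPKM in TSPAN8-high, 3.12 FPKM in TSPAN8-low and 3.62 FPKM in all ID4-EGFP+. Without strand, reads of the 2 genes cannot be told apart where they overlap.

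**Figure D3:**
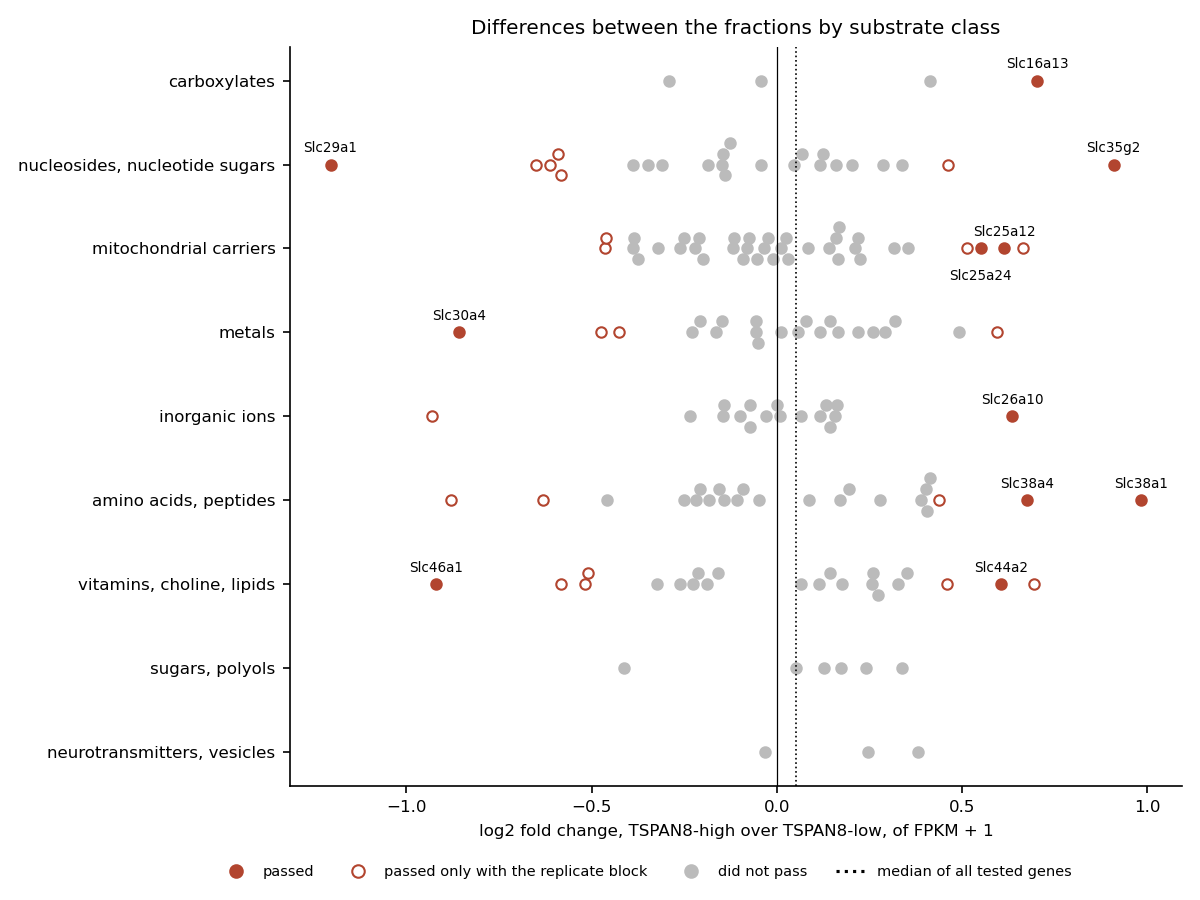
Log2 fold change of FPKM + 1, TSPAN8-high over TSPAN8-low, of each of the 158 carrier genes by substrate class. Filled red points passed (named), open red points passed only with the replicate block (both with FPKM), grey points did not pass, and the dotted line is the median of all tested genes at 0.05. Slc29a1 at -1.20 and Slc38a1 at 0.98 mark the ends, and no class lies wholly on 1 side of 0.

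Mitochondrial carriers gave 2 higher and 0 lower of 37 with FPKM, against 3.41% and 2.15% of all tested genes. At a common median 0 were higher and 2 lower, against 2.05% and 3.25% of all tested genes. With the authors' normalized values 1 was higher and 0 lower, against 2% and 2.76%. Estimates were above 0 for 17 and below for 20 (13 and 24 at a common median). Slc25a12 encodes the calcium-regulated aspartate/glutamate carrier of the malate-aspartate shuttle. It had 3.50, 3.69 and 4.71 FPKM in TSPAN8-high, 1.73, 2.25 and 2.79 FPKM in TSPAN8-low, and 3.21, 3.19 and 3.11 FPKM in all ID4-EGFP+. The 3 groups do not overlap one another (log2 fold change 0.61, SE 0.16, limma adjusted p = 0.0446). Its paralog Slc25a13 had 2.97, 4.87 and 4.20 FPKM in TSPAN8-high, 2.36, 3.76 and 2.93 FPKM in TSPAN8-low, and 2.92, 4.07 and 4.58 FPKM in all ID4-EGFP+. Those ranges overlap (log2 fold change 0.32, SE 0.20, limma adjusted p = 0.379). Slc25a24, the calcium-regulated ATP-magnesium/phosphate carrier, had 4.51, 4.08 and 4.85 FPKM in TSPAN8-high, 2.87, 2.69 and 2.64 FPKM in TSPAN8-low, and 3.47, 2.82 and 3.56 FPKM in all ID4-EGFP+. TSPAN8-high lay above both other groups (log2 fold change 0.55, SE 0.14, limma adjusted p = 0.0398). Each of the 2 calls held only without 1 library, TSPAN8-low replicate 3 for Slc25a12 and all ID4-EGFP+ replicate 2 for Slc25a24, and without any 1 of the others the adjusted p was at least 0.0517 for Slc25a12 and 0.0543 for Slc25a24.

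The 3 ADP/ATP carriers differed in how even they were. Slc25a31 had 577, 449 and 413 FPKM in TSPAN8-high, 539, 400 and 468 FPKM in TSPAN8-low, and 477, 414 and 413 FPKM in all ID4-EGFP+. Slc25a5 had 432, 386 and 426 FPKM in TSPAN8-high, 291, 355 and 431 FPKM in TSPAN8-low, and 404, 326 and 433 FPKM in all ID4-EGFP+. Both overlap between the fractions, with log2 fold changes of 0.03 (SE 0.17) and 0.22 (SE 0.17) that did not pass. Slc25a4, the form known from heart and skeletal muscle, had 130, 119 and 134 FPKM in TSPAN8-high, 63.5, 81.3 and 98.7 FPKM in TSPAN8-low, and 91.8, 78.1 and 110 FPKM in all ID4-EGFP+. All 3 TSPAN8-high libraries lay above the 6 others, and its log2 fold change of 0.66 missed the threshold without the block (SE 0.18, limma adjusted p = 0.0533; 0.00590 with the block, and 0.0353 without it with the authors' normalized values). Its share of the FPKM summed over the 3 genes was 11.4 to 13.7% in TSPAN8-high, 7.11 to 9.90% in TSPAN8-low and 9.43 to 11.5% in all ID4-EGFP+. The 3 proteins are alike and reads shared by near-identical stretches may have been split between them.

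**Figure D4:**
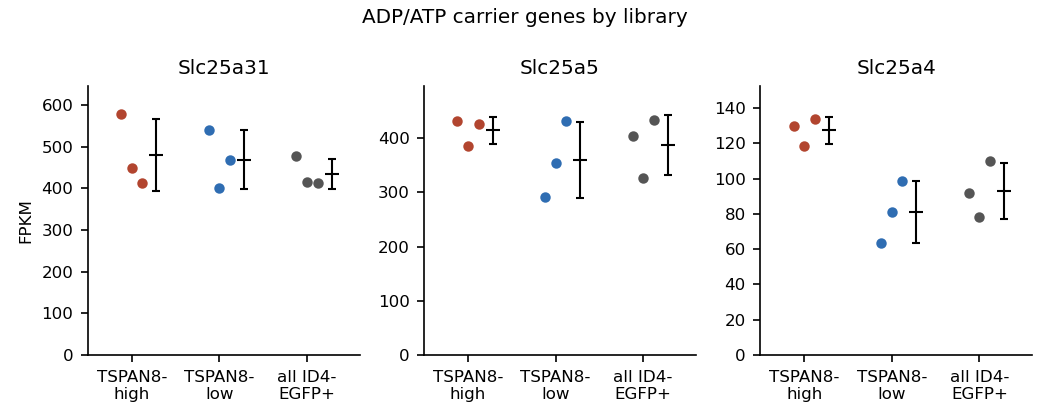
FPKM of the 3 ADP/ATP carrier genes in each library (points), with the mean and SD of 3 libraries per group, on axes that start at 0. Slc25a31 and Slc25a5 overlap between the groups, and Slc25a4 lies at 119 FPKM or more in TSPAN8-high and at 110 FPKM or less in the other libraries.

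Other carriers of metabolites into mitochondria were near the threshold. Slc25a33, a pyrimidine nucleotide carrier, had 57.4, 63.0 and 64.3 FPKM in TSPAN8-high, 87.5, 78.8 and 89.4 FPKM in TSPAN8-low, and 87.5, 78.5 and 85.4 FPKM in all ID4-EGFP+. TSPAN8-high was the group apart, below all 6 other libraries (log2 fold change -0.46, SE 0.13, limma adjusted p = 0.0599; 0.0118 with the block, and 0.0284 without it at a common median). Slc25a20, the carnitine/acylcarnitine carrier of fatty acid oxidation, had 10.1, 12.5 and 13.3 FPKM in TSPAN8-high, 7.23, 9.10 and 7.87 FPKM in TSPAN8-low, and 9.45, 10.7 and 10.3 FPKM in all ID4-EGFP+. Its fractions do not overlap (log2 fold change 0.51, SE 0.15, limma adjusted p = 0.0711; 0.0121 with the block). The abundant phosphate carrier Slc25a3 had an estimate of -0.02 (SE 0.14), and the glutathione-related Slc25a39 of -0.25 (SE 0.23). Among carriers of sugars and polyols (6) and of neurotransmitters, creatine or taurine (3), none passed with or without the block. Of all tested genes 19.1% passed with the block and 5.56% without it, so few or none would be awaited in classes this small. Slc50a1 had 32.6 ± 5.08 FPKM in TSPAN8-high, 44.3 ± 11.6 FPKM in TSPAN8-low and 40.2 ± 3.59 FPKM in all ID4-EGFP+ (SD, n = 3 each).

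Promoters are shown for the 4 genes with the largest changes, 2 in each direction, among the genes that passed and had 1 start site in the sequence table and no exon shared with a coding gene. Sequences are from RefSeq (GRCm38.p6), 5′ to 3′ on the gene's strand, from 250 bases before to 50 after the start; of the 158 genes, 121 had an entry, as did 9 of the 11. Slc46a1 (chr11:78465451-78465750, plus strand) and Slc30a4 (chr2:122702614-122702913, minus strand) were lower in TSPAN8-high, and Slc35g2 (chr9:100571036-100571335, minus strand) and Slc25a12 (chr2:71367706-71368005, minus strand) were higher. Capitals mark matches, on either strand, to CANNTG (the E box) or GGGCGG (the GC box).
Slc46a1: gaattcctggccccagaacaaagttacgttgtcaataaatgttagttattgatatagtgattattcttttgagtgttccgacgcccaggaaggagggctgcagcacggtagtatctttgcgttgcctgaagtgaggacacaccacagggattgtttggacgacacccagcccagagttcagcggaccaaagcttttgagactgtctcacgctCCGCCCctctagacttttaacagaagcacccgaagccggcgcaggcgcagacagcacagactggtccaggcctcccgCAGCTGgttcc
Slc30a4: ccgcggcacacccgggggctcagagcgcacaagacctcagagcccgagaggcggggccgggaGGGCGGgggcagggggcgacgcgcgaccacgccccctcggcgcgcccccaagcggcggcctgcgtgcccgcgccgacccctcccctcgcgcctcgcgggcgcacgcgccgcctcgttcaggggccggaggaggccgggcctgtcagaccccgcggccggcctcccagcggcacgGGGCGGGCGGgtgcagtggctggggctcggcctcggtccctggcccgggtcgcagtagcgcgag
Slc35g2: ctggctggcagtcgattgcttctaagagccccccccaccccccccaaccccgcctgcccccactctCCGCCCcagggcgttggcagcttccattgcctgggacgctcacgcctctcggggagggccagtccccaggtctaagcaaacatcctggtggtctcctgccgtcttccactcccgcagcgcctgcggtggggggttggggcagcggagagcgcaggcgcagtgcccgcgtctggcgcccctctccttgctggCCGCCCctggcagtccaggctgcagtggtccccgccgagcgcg
Slc25a12: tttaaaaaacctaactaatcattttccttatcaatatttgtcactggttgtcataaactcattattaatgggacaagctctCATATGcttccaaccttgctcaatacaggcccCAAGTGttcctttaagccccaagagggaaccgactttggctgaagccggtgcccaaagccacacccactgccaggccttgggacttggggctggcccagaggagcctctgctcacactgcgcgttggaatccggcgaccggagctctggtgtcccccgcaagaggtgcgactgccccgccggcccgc
Slc46a1 has 1 E box match and 1 GC box match, Slc30a4 has 3 GC box matches of which 2 overlap each other, Slc35g2 has 2 GC box matches, and Slc25a12 has 2 E box matches. CCGGAA, the core of ETS factor motifs, was searched too and is not in these letters. Across 32851 promoters of the same length, 72.3% hold CANNTG, 35.7% hold GGGCGG and 14.9% hold CCGGAA, and no matches of different motifs overlap in the 4. The GC content of the 4 windows was 53%, 81.7%, 71.7% and 54.3% in the order printed. A match is a match of letters, and factor binding was not measured.

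With the replicate number as a block, 15 carriers were higher and 17 lower between the fractions (32 of 158, 20.3%), against 11.8% higher and 7.34% lower of all tested genes. All 11 above were among the 32. Of the 21 added, those with small p included Slc7a14, Slc35f5, Slc25a4, Slc35g1, Slc25a33, Slc25a20, Slc35e2, Slc7a2 and Slc19a2. Of these, Slc25a4 and Slc25a20 were higher in TSPAN8-high and the others lower. By class the block gave 2 higher and 5 lower for nucleosides and nucleotide sugars, 3 and 4 for vitamins, choline and lipids, 4 and 2 for mitochondrial carriers, 3 and 2 for amino acids, and 1 and 3 for metals. Inorganic ions had 1 and 1, and carboxylates 1 and 0. Median log2 fold changes of the classes ran between -0.13 (nucleosides and nucleotide sugars) and 0.25 (neurotransmitters, creatine and taurine, 3 genes). Over the 158 the median was 0.00, with 79 estimates on each side of 0, while over all tested genes it was 0.05, with 6301 of 11142 above 0.

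The direction of the split depended on how libraries were scaled, which moved the median of all genes by -0.09 (common median) or -0.05 (quantile, and the authors' normalized values) on the log2 scale. In TSPAN8-high, 8 carriers were higher and 3 lower with FPKM as deposited. At a common median 2 were higher and 9 lower, against 2.05% and 3.25% of all tested genes. After quantile normalization 3 were higher and 6 lower, against 2.24% and 2.69%, and with the authors' normalized values 2 were higher and 7 lower, against 2% and 2.76%. With the block 15 were higher and 17 lower. The block at a common median gave 12 higher and 23 lower, against 7.4% and 10.5% of all tested genes, and the block with the authors' normalized values gave 12 and 22, against 8.32% and 9.14%. The 5 carriers that passed with FPKM and at a common median were Slc38a1, Slc35g2, Slc29a1, Slc46a1 and Slc30a4. With the authors' normalized values Slc35g2 missed the threshold (adjusted p = 0.0601) and the other 4 passed. The 6 carriers gained at a common median, all lower in TSPAN8-high, were Slc25a33, Slc25a37 (a mitochondrial iron importer), Slc30a3, Slc35b2, Slc35f5 and Slc7a2. No single carrier changed direction with scaling among the 11.

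**Figure D5:**
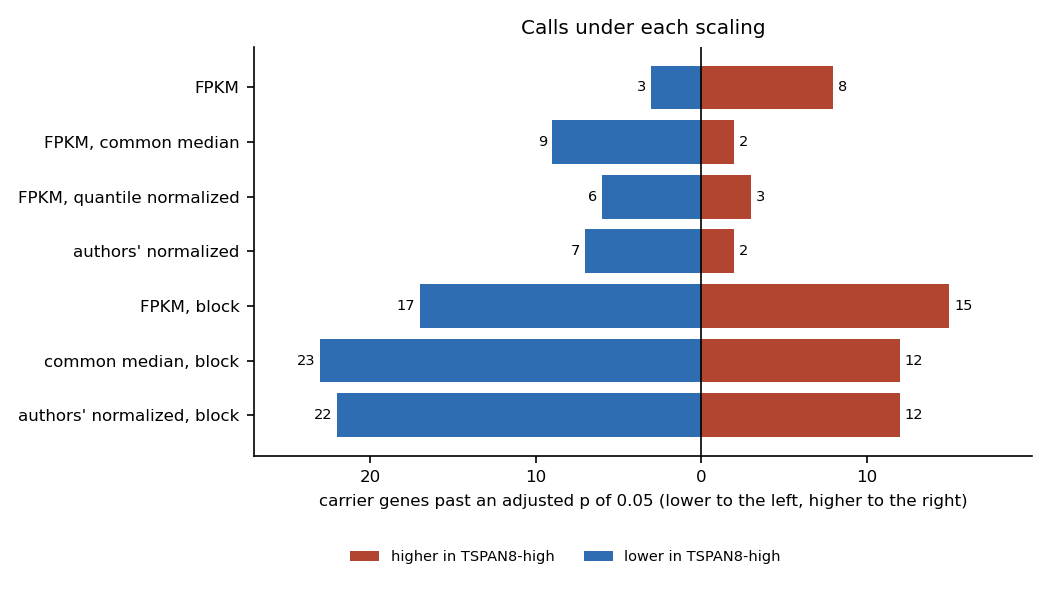
Number of the 158 carriers that passed between the fractions under each scaling, without and with the replicate block. Bars to the right count genes higher in TSPAN8-high and bars to the left genes lower in it. With FPKM 8 genes are to the right and 3 to the left, and in every other pair of bars more are to the left.

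Each fraction was also set against all ID4-EGFP+. These 2 comparisons share the all ID4-EGFP+ libraries. No carrier passed for TSPAN8-high against all ID4-EGFP+ in limma (0 of 158, against 0.144% of all tested genes). At an unadjusted p under 0.05 there were 19 carriers, against 9.74% of all tested genes. Adding the block gave 6, against 3.09% of all tested genes (1.23% higher and 1.86% lower). Slc35g2 was higher (log2 fold change 0.74, adjusted p = 0.0451), and Slc7a14 (-1.01, 0.00496), Slc29a1 (-0.79, 0.0175), Slc35e2 (-0.75, 0.0124) and Slc25a33 (-0.44, 0.0471) were among those lower in TSPAN8-high. Slc35e2, a gene of the nucleotide sugar transporter family, had 2.86, 3.35 and 4.24 FPKM in TSPAN8-high, 4.40, 6.26 and 6.55 FPKM in TSPAN8-low, and 6.07, 5.46 and 8.10 FPKM in all ID4-EGFP+. TSPAN8-high lay below both other groups. The count with the block fell to 1 without TSPAN8-high replicate 1, all ID4-EGFP+ replicate 1 or all ID4-EGFP+ replicate 3, was 3 without TSPAN8-high replicate 2, TSPAN8-high replicate 3, TSPAN8-low replicate 3 or all ID4-EGFP+ replicate 2, and was 9 without TSPAN8-low replicate 1. Values did not overlap for 30 carriers (19%), against 15.1% of all tested genes.

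For TSPAN8-low against all ID4-EGFP+, no carrier passed in limma (0 of 158, against 0% of all tested genes). At an unadjusted p under 0.05 there were 12 carriers, against 8.17% of all tested genes. Adding the block again gave 0, against 0.0449% of all tested genes. Values did not overlap for 18 carriers (11.4%), against 14.3% of all tested genes. The smallest p belonged to Slc44a2 (log2 fold change -0.61, adjusted p = 0.600), and Slc10a3, an orphan gene of the bile acid transporter family, followed. Slc10a3 had 16.8, 16.3 and 21.2 FPKM in TSPAN8-high, 11.07, 12.004 and 15.63 FPKM in TSPAN8-low, and 20.5, 19.4 and 19.2 FPKM in all ID4-EGFP+. TSPAN8-low lay below both other groups (log2 fold change of TSPAN8-low against all ID4-EGFP+ -0.59, SE 0.16, limma adjusted p = 0.600).

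The number of carriers that passed between the fractions changed when libraries were left out. It was 11 with all 9 libraries. Leaving out 1 TSPAN8-high library gave 6 (replicate 1), 1 (replicate 2) or 3 (replicate 3), leaving out 1 TSPAN8-low library gave 4, 4 or 7 in the same order, and leaving out 1 all ID4-EGFP+ library gave 7, 9 or 7. Dropping a replicate number from all groups gave 5, 0 or 0. The count of 32 with the block became 18, 23 or 15 when TSPAN8-high replicate 1, 2 or 3 was left out. It became 30, 23 or 20 for the TSPAN8-low replicates in the same order, and 31 or 32 for those of all ID4-EGFP+. Without the block, leaving out an all ID4-EGFP+ library left the fold changes of the 11 genes between the fractions unchanged. Fits without a library also have fewer samples, and the share of all tested genes that passed in them is not given here.

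Transporters and partners outside the Slc naming pattern were read from a list of 38 genes, of which 28 were tested. Of these, 2 were higher in TSPAN8-high and 1 was lower, against 3.41% and 2.15% of all tested genes. With the block 2 were higher and 2 lower, against 11.8% and 7.34% of all tested genes. The median log2 fold change was 0.11, against 0.05 for all tested genes. Slc9a3r1, a scaffold protein gene for sodium/proton exchangers and other membrane proteins, averaged 27.3 FPKM in TSPAN8-high, 12.8 FPKM in TSPAN8-low and 19.1 FPKM in all ID4-EGFP+ (log2 fold change 1.05, SE 0.16, limma adjusted p = 0.00578). Pqlc1, a gene of the PQ-loop family, averaged 22.0 FPKM in TSPAN8-high, 6.62 FPKM in TSPAN8-low and 11.1 FPKM in all ID4-EGFP+ (1.68, SE 0.25, limma adjusted p = 0.00558). Mfsd11, of the major facilitator superfamily, averaged 51.7 FPKM in TSPAN8-high, 94.4 FPKM in TSPAN8-low and 99.9 FPKM in all ID4-EGFP+ (-0.87, SE 0.23, limma adjusted p = 0.0496). Bsg, the partner that brings MCT1 to the membrane, stood at 366 FPKM in TSPAN8-high, 423 FPKM in TSPAN8-low and 419 FPKM in all ID4-EGFP+ and did not pass, like Slc16a1 itself. Mpc1 and Mpc2, the mitochondrial pyruvate carrier, had estimates of 0.09 and 0.03.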

How the data were processed

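RNA was sequenced in 9 libraries made with SMART-Seq v4, which primes on poly(A) tails and does not mark strand, and Nextera XT, per the labels' protocols. The authors deposited FPKM values per library, made with Cufflinks after TopHat2 2.0.12 alignment (Bowtie2 2.2.3.0, reads checked in FastQC) to build mm9, per the submitters' processing notes. The sources used here give neither a Cufflinks version nor an annotation. A deposited table of normalized values, treated as signal, served as an alternative only.

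Columns were matched to samples by the population letters and sample number in their names, with 0 left unmapped. Symbols on more than 1 entry (262) were left out, and 11142 genes with at least 1 FPKM in 3 or more libraries were fitted together. The fit was limma 3.58.1 in R 4.3.3 (trended, two-sided) on log2(FPKM + 1), with 3 group means and no further scaling, and p was adjusted by Benjamini-Hochberg over all tested genes with a threshold of 0.05. Such fold changes understate changes at low FPKM. The fit was tested on simulated data. Exon overlaps came from GENCODE and served for names and shares only.

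Samples of the 3 groups share replicate numbers in their titles. Deviations from the group mean were correlated across genes between same-numbered libraries (9 pairs, r of 0.26 to 0.48) and, for the 18 other pairs, r was -0.46 to 0.28, so the numbers were taken to pair the samples, from this pattern in the data. The alternatives were the block for the number, a pseudocount of 0.1, other filters and scalings, no variance trend, only the 2 groups compared, and leaving out libraries. The members, gene lists, substrate classes and alternatives were chosen with earlier results of these data known. Named genes were all that passed between the fractions, the 10 next by p, the 10 with the smallest p among those that passed only with the block, the 2 most abundant of each class, and up to 5 in each direction that passed in the other comparisons. Further genes named are relatives, partners or extremes of level or spread, chosen with values seen. Some genes that the naming rule covers are not reported here.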

Additional observations from a re-analysis of the deposited data

How the results depend on the processing

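For TSPAN8-high against TSPAN8-low, 11 carriers passed, and 9 to 11 did at a common median, after quantile normalization, with the authors' normalized values, with a pseudocount of 0.1, with a mean-level filter and with no variance trend, although the split by direction turned under each of the 3 scalings. Without a filter on low values 1 passed, with 23045 genes tested, and with only the 2 groups compared in the fit 6 passed, with fewer samples. With the replicate number as a block 32 passed, 35 with the block at a common median, and 34 with the block and the authors' normalized values, an alternative chosen after seeing the data. Leaving out 1 library, or 1 replicate number of all groups, gave 0 to 9 without the block and, for 1 library, 15 to 32 with the block (TSPAN8-high 18, 23 and 15, TSPAN8-low 30, 23 and 20, all ID4-EGFP+ 32, 32 and 31). For TSPAN8-high against all ID4-EGFP+, 0 passed under every alternative without the block; with it 6 passed, 5 at a common median, 4 with the authors' normalized values, and 1 to 9 without 1 library. For TSPAN8-low against all ID4-EGFP+, 0 passed under every alternative run. The carriers that passed or stood nearest the threshold kept their direction under every alternative run, while Slc25a31 and Slc30a6, with estimates near 0, turned below 0 at a common median. FPKM without counts gives no depth per gene, so values near 1 FPKM have an error that could not be computed, and 3 libraries a group limit the precision.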
